A study of Mus musculus with 18 samples.

Results

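Collagen transcripts were followed in whole mouse bladders through the first 3 days after chemical injury. Every protein-coding gene whose symbol reads Col, a number, the letter a and a number was taken as a member, which gave 44 genes of the 46333 named genes in the count table. They comprised 11 fibrillar, 9 basement membrane, 9 fibril-associated, 4 membrane-spanning, 6 type VI and 3 short-chain collagens and 2 others, and 41 of them had enough counts to be tested. The members below the filter on low counts were Col9a1, Col10a1 and Col26a1.

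The mice were wild-type BALB/c females aged 8 weeks, with 3 biological replicates in each of 6 groups. A vitamin A-enriched or a normal diet was fed for the week ahead of 1 intraperitoneal injection, either of saline or of cyclophosphamide at 150 mg/kg. Groups on each diet were saline at 1 day, cyclophosphamide at 1 day and cyclophosphamide at 3 days, so a comparison of 3 days with saline also spans a difference in collection day. Mice were housed by 3 and the cage of each is not given, so cage and group cannot be told apart. The enriched diet held 566081 UI of retinyl acetate per kg by the sample labels, whereas the description of the series names retinyl palmitate. Cyclophosphamide is a nitrogen mustard, and its urinary breakdown product acrolein damages the lining of the bladder. The series asked how extra vitamin A bears on renewal of that lining, the urothelium.

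Collagens are secreted or membrane-bound proteins whose alpha chains wind into a triple helix. Fibrillar collagens such as types I, III and V assemble into the fibrils that let the bladder wall stretch without tearing, and fibril-associated collagens such as types XII and XIV sit on the surface of those fibrils. Type IV forms the sheet of the basement membrane under the urothelium and around vessels and muscle, and type XVII is a transmembrane protein that holds basal epithelial cells to that sheet. Fibroblasts are the main source of fibrillar collagen in most organs.

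Each library held 19554132 to 34598952 counts, and collagens took 0.349% to 1.7% of the counts of named genes. Markers of bladder tissue were present in every library. The 9 smooth muscle markers summed to between 10390 and 32900 CPM (counts scaled to library totals). The 5 markers of umbrella cells, the surface cells of the bladder lining, summed to between 2169 and 7218 CPM. The library labelled cyclophosphamide 3 days, vitamin A, replicate 2 had the lowest mean correlation with the others of its group (0.969 across genes), and cyclophosphamide 1 day, vitamin A, replicate 3 had the highest share of mitochondrial counts (3.82%). Counts of changed collagens are given with and without these 2 libraries, which enter the spread of every comparison. In RNA from a whole organ, fewer cells of a type and less RNA per cell cannot be told apart.

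The sequence before the start of 4 members is shown as examples of 2 patterns described here. They were picked among members with a matched RefSeq entry and no annotated exon in the run. Col1a1 and Col14a1 had no matched entry. Limits on the calls of Col11a1, Col23a1 and Col7a1 are given below. Col3a1, Col11a1 and Col23a1 were higher at 3 days than at 1 day after cyclophosphamide on both diets, and Col7a1 was higher at 3 days than after saline on both diets. Each run is the 250 bases before the RefSeq start on the GRCm38.p6 assembly, plus strand, at chr1:45311288-45311537 for Col3a1, chr3:114030290-114030539 for Col11a1, chr11:51289670-51289919 for Col23a1 and chr9:108953336-108953585 for Col7a1, and holds no annotated exon. Capitals mark matches on either strand to 4 short motifs that may overlap each other, namely TATAAA for the TATA box, CCAAT for the box of that name, GGGCGG for the GC box and TGANTCA for the AP-1 site.
Col3a1: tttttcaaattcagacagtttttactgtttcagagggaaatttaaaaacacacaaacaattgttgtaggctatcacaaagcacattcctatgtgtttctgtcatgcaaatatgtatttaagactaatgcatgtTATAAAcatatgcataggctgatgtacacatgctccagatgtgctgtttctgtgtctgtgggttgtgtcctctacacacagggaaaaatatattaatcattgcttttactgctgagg
Col11a1: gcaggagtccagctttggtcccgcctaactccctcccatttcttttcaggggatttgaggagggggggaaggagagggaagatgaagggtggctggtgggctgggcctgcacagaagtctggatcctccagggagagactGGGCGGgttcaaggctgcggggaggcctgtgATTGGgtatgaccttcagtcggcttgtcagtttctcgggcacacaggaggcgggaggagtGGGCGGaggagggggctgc
Col23a1: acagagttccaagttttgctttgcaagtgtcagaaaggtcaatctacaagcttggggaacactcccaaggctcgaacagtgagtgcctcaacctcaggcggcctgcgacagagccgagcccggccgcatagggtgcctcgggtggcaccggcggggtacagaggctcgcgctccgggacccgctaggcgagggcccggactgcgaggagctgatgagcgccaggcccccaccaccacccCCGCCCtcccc
Col7a1: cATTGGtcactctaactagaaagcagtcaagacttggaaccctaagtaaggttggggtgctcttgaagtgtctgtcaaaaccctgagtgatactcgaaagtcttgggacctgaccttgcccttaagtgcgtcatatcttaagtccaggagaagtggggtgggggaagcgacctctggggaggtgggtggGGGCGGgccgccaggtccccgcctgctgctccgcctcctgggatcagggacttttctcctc

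Col3a1 held a TATAAA beginning at position -117 from the start and no GGGCGG. Col11a1, Col23a1 and Col7a1 each held GGGCGG and no TATAAA, and Col11a1 and Col7a1 also held CCAAT. RefSeq entries were matched for 35 of the 44 collagens, in 38 promoters. GGGCGG occurred in 22 of these 38, against 32.7% of 32851 promoters of the same length. CCAAT occurred in 13 of the 38 collagen promoters against 33.8% of all, TATAAA in 5 against 12.4%, and TGANTCA in 1 against 6.75%. These matches describe letters only.

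After saline, 3 fibrillar genes carried most of the family. Levels of different genes are compared as deposited FPKM, which is per length of gene. Col1a1 and Col1a2, the chains of type I collagen, averaged 205 ± 19.7 and 321 ± 29.2 FPKM on vitamin A, against 215 ± 9.31 and 305 ± 14.1 FPKM on the normal diet (SD, n = 3 each). Col3a1, the chain of type III collagen, averaged 309 ± 25.5 FPKM on vitamin A and 305 ± 20.9 FPKM on the normal diet. The next genes in order were Col6a1, a chain of the beaded filament type VI, at 82.3 ± 4.87 and 89.1 ± 4.61 FPKM, and Col4a1, the main type IV chain, at 67.2 ± 10.9 and 66.4 ± 11.3 FPKM, on vitamin A and on the normal diet. Col14a1 averaged 36.8 ± 2.58 FPKM on vitamin A and 38.7 ± 2.01 FPKM on the normal diet, Col17a1 3.96 ± 1.39 and 4.35 ± 0.214 FPKM, and Col11a1 0.673 ± 0.124 and 1.01 ± 0.307 FPKM.

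The summed level of the family was lower at 1 day than after saline, and higher at 3 days than at 1 day, in every library. On vitamin A the 44 genes summed to 1434, 1233 and 1256 FPKM after saline, 1004, 543 and 778 FPKM at 1 day and 2723, 1845 and 1381 FPKM at 3 days. On the normal diet they summed to 1399, 1324 and 1257 FPKM after saline, 572, 763 and 704 FPKM at 1 day and 1764, 2661 and 2690.1 FPKM at 3 days. The libraries at 1 day all lay below those after saline, and those at 3 days all lay above those at 1 day. The log2 ratio of the group means at 1 day over saline was -0.75 on vitamin A and -0.97 on the normal diet, and at 3 days over 1 day it was 1.36 and 1.80. Each of these 4 gave an exact two-sided permutation p = 0.1, the smallest that 3 against 3 libraries allow. At 3 days over saline the log2 ratio was 0.60 on vitamin A, where the groups overlapped (exact permutation p = 0.2), and 0.84 on the normal diet (exact permutation p = 0.1). Without Col1a1, Col1a2 and Col3a1 the log2 ratio at 1 day over saline was -0.045 on vitamin A and -0.50 on the normal diet.

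The make-up of the collagen RNA shifted with it. Fibrillar genes made up 67.8% ± 0.274 of the summed FPKM after saline, 44.7% ± 7.55 at 1 day and 73.7% ± 3.87 at 3 days on vitamin A, and 66.4% ± 0.868, 52.1% ± 5.94 and 75% ± 1.47 on the normal diet. Basement membrane genes made up 14.2% ± 0.326, 33.5% ± 5.51 and 12.3% ± 3.98 at the same times on vitamin A, and 14.4% ± 0.751, 26.5% ± 4.47 and 11.5% ± 1.42 on the normal diet. Thus at 1 day a smaller share was fibrillar and a larger share basement membrane than after saline. The larger share was not a clear rise in level. Basement membrane genes averaged a sum of 254 FPKM at 1 day against 186 FPKM after saline on vitamin A (exact permutation p = 0.2). On the normal diet they averaged 178 against 191 FPKM (exact permutation p = 0.5), and the groups overlapped on both diets. Col1a1, Col1a2 and Col3a1 were the 3 most abundant collagens in 15 of the 18 libraries, and the exceptions were 3 libraries at 1 day. In those, Col4a1, Col4a2 or Col18a1 took a place among the first 3.

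**Figure D1:**
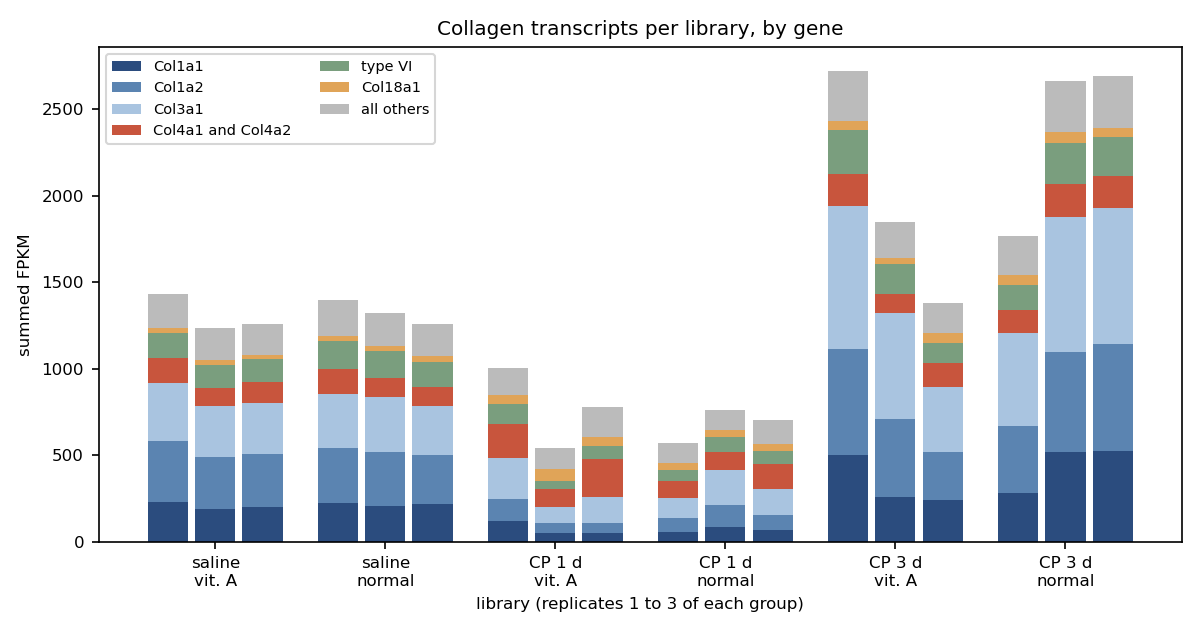
Summed FPKM (y axis) of the 44 collagen genes in each of 18 libraries (x axis, replicates 1 to 3 of each group), with bars split by gene. Bars at 1 day after cyclophosphamide reach 543 to 1004 FPKM, below the saline bars at 1233 to 1434 FPKM, and the blue type I and III parts are smaller in every 1-day library than after saline.

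One day after cyclophosphamide, type I collagen genes and Col14a1, the gene of a collagen on the fibril surface, were lower than after saline on both diets, and the epithelial anchor Col17a1 was higher. On vitamin A, 14 of 41 tested collagens were lower and 5 higher, where 9.05% of all 19323 genes tested were lower and 10.2% higher (19.3% in either direction). On the normal diet, 12 were lower and 1 higher, where 4.49% of all genes were lower and 7.26% higher (11.8% in either direction). The median log2 change over the 41 collagens was -0.45 on vitamin A and -0.59 on the normal diet. The median over all genes lay between -0.0132 and 0.013 in this and the other comparisons of times and treatments. Without the 2 libraries that stand apart, 11 were lower and 4 higher on vitamin A, and 11 were lower and 2 higher on the normal diet, where a fit to the compared groups alone called 21. On vitamin A, 12 were called in all when saline replicate 2, or 1-day replicate 2 or 3, was left out alone. The saline groups of the 2 diets are separate mice, and 9 collagens were lower on both diets, out of 14 and 12. These were Col1a1, Col1a2, Col4a4, Col4a5, Col6a3, Col14a1, Col15a1, Col20a1 and Col23a1.

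Of the fibrillar collagens, 4 of 11 were lower on vitamin A (Col1a1, Col1a2, Col3a1 and Col24a1) and 4 on the normal diet (Col1a1, Col1a2, Col5a1 and Col11a2). Col1a1 (chromosome 11, 94827050 to 94843868, plus strand, GRCm39) had 748, 283 and 285 CPM at 1 day, against 1307, 1121 and 1211 CPM after saline, on vitamin A. Mice on the normal diet had 332, 535 and 396 CPM of Col1a1 at 1 day, against 1331, 1220.0 and 1293 CPM after saline. All treated libraries lay below all saline libraries, and Col1a1 fell on vitamin A (log2 -1.51, SE 0.34, adjusted p = 0.00425) and on the normal diet (log2 -1.61, SE 0.35, adjusted p = 0.00505). Col1a2, the second chain of type I, had 686, 323 and 323 CPM at 1 day, against 1795, 1570.5 and 1639.6 CPM after saline, on vitamin A. Normal-diet bladders had 428, 672 and 454 CPM at 1 day, against 1636, 1626 and 1527 CPM after saline. It fell without overlap on both (log2 -1.95, adjusted p = 0.00014 on vitamin A; log2 -1.63, adjusted p = 0.00135 on the normal diet). Col3a1 had 1389.8, 513 and 836 CPM at 1 day and 1827, 1638 and 1671 CPM after saline on vitamin A. Its normal-diet levels were 648, 1156 and 858 CPM at 1 day and 1760.1, 1761 and 1584 CPM after saline. Its groups did not overlap on either diet. It passed the threshold on vitamin A (log2 -0.95, adjusted p = 0.0363) and missed it on the normal diet (log2 -0.94, adjusted p = 0.0532). The difference between diets did not pass either (log2 -0.01, adjusted p = 0.999). The Col3a1 call on vitamin A ended without saline replicate 1, 2 or 3 or 1-day replicate 2 or 3 (adjusted p between 0.062 and 0.156). Col5a1, a chain of type V collagen, which starts and limits the width of type I fibrils, had 77.8, 105 and 101 CPM at 1 day, against 221, 181 and 187 CPM after saline, on the normal diet. It gave log2 -0.56 on vitamin A (adjusted p = 0.119) and -1.05 on the normal diet (adjusted p = 0.00879). Of the minor chains, Col24a1 was called on vitamin A, at 2.72, 1.13 and 1.34 CPM at 1 day against 3.66, 3.81 and 3.46 CPM after saline (log2 -1.11, adjusted p = 0.0471). That call ended without saline replicate 1, 2 or 3 or 1-day replicate 2 or 3 (adjusted p between 0.0738 and 0.171). Col11a2 was called on the normal diet, at 3.68, 2.58 and 4.3 CPM at 1 day against 5.42, 9.13 and 6.83 CPM after saline (log2 -1.02, adjusted p = 0.0236). That call ended without saline replicate 2 or 3 or 1-day replicate 1 or 2 (adjusted p between 0.0564 and 0.13). Col2a1, the cartilage collagen, was called higher on vitamin A at 1.26 ± 0.232 CPM at 1 day against 0.108 ± 0.104 CPM after saline (SD, n = 3), a level at which 1 saline library held 0 counts. The call ended without saline replicate 1 or 2 or 1-day replicate 2 or 3 (adjusted p between 0.0506 and 0.105).

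Among fibril-associated collagens, 2 of 8 tested genes fell on each diet, Col14a1 and Col20a1. Col14a1 (chromosome 15, 55171040 to 55384199, plus strand), which encodes a collagen that lies on fibrils and is a marker of adventitial fibroblasts, had 24.3, 7.05 and 11.9 CPM at 1 day, against 275, 250.1 and 259 CPM after saline, on vitamin A. It had 10.8, 17.6 and 18.3 CPM at 1 day, against 290.1, 273 and 266 CPM after saline, on the normal diet. It was 18.7-fold lower on vitamin A (log2 -4.22, SE 0.42, adjusted p = 2.43e-06) and 17.7-fold lower on the normal diet (log2 -4.15, SE 0.42, adjusted p = 8.89e-06), and in log2 units it fell by more than any other tested collagen on each diet. Col12a1, which encodes the related type XII, gave log2 0.23 (95% interval -0.30 to 0.76) on vitamin A and 0.09 (-0.44 to 0.62) on the normal diet, neither past the threshold. Col20a1 had 14.2, 8.74 and 11.3 CPM at 1 day, against 24, 32.6 and 32.9 CPM after saline, on vitamin A (log2 -1.41, adjusted p = 0.000283). Normal-diet bladders had 13.7, 12.1 and 15.7 CPM at 1 day, against 25.6, 27.8 and 32.3 CPM after saline (log2 -1.05, adjusted p = 0.00599). The treated libraries of Col14a1 and Col20a1 lay below all saline libraries on both diets.

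Basement membrane collagens were mixed. Col4a1 (chromosome 8, 11248423 to 11362889, minus strand) had 872, 438 and 906 CPM at 1 day, against 627, 469 and 555 CPM after saline, on vitamin A. Its normal-diet levels were 442, 449 and 645 CPM at 1 day, against 652, 492 and 498 CPM after saline. The groups overlapped on both diets and neither difference passed (log2 0.39, 95% interval -0.14 to 0.91, on vitamin A; log2 -0.10, 95% interval -0.62 to 0.43, on the normal diet). Col15a1, whose product lies between basement membranes and fibrils, had 47.7, 15.5 and 42.6 CPM at 1 day, against 85.8, 73.6 and 80.9 CPM after saline, on vitamin A (log2 -1.22, adjusted p = 0.00806). Normal-diet bladders had 25.1, 33.7 and 37.7 CPM at 1 day, against 96.9, 102 and 81 CPM after saline (log2 -1.54, adjusted p = 0.00284), so it fell on both. Col18a1, the source of the fragment endostatin, had 425, 504 and 390.4 CPM at 1 day, against 198, 221 and 184 CPM after saline, on vitamin A, and rose there (log2 1.10, SE 0.17, adjusted p = 0.000145). Col18a1 had 300.1, 302 and 288 CPM at 1 day, against 223, 198 and 240.1 CPM after saline, on the normal diet, a difference that kept the groups apart but missed the threshold (log2 0.43, adjusted p = 0.111). Col7a1, which makes the anchoring fibrils under stratified epithelia, had 15.5, 29.2 and 18.6 CPM at 1 day, against 4.41, 6.54 and 7.25 CPM after saline, on vitamin A (log2 1.78, adjusted p = 0.00275). Normal-diet bladders had 7.22, 6.98 and 22.8 CPM at 1 day, against 6.25, 5.16 and 9.06 CPM after saline (log2 0.85, adjusted p = 0.158), where 1 treated library lay above all saline libraries and the other two within their range. The minor type IV chains Col4a4 and Col4a5 fell on both diets, with log2 -2.09 and -0.40 on vitamin A and -2.10 and -0.41 on the normal diet. Col4a4 had 1.89, 0.926 and 0.497 CPM at 1 day, against 2.76, 5.17 and 6.04 CPM after saline, on vitamin A. Normal-diet bladders had 1.91, 1.09 and 0.982 CPM at 1 day, against 7.76, 2.92 and 6.37 CPM after saline, without overlap. The Col4a4 calls ended without saline replicate 2 or 3 or 1-day replicate 2 or 3 (adjusted p between 0.0583 and 0.0914) on vitamin A and without saline replicate 1 or 3 or 1-day replicate 2 or 3 (adjusted p between 0.083 and 0.119) on the normal diet. Those of Col4a5 ended without saline replicate 1 or 2 or 1-day replicate 2 or 3 (adjusted p between 0.0517 and 0.0995) on vitamin A and without saline replicate 1, 2 or 3 or 1-day replicate 1, 2 or 3 (adjusted p between 0.0554 and 0.142) on the normal diet. Col4a6, at 3.69, 1.13 and 3.08 CPM at 1 day against 6.42, 6.42 and 3.79 CPM after saline, and Col4a3 were also lower on vitamin A (log2 -1.12, adjusted p = 0.0385 for Col4a6; log2 -2.28, adjusted p = 0.0281 for Col4a3). The Col4a6 call ended without saline replicate 1 or 2 or 1-day replicate 2 or 3 (adjusted p between 0.056 and 0.149), and that of Col4a3 without saline replicate 1, 2 or 3 or 1-day replicate 2 or 3 (adjusted p between 0.0504 and 0.0752). Col4a3 overlaps an antisense transcript that held 49.5% as many counts, so its value is uncertain.

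Of the membrane-spanning collagens, Col17a1 rose and Col23a1 fell on both diets. Col17a1 (chromosome 19, 47634780 to 47680481, minus strand) had 99.6, 232 and 191 CPM at 1 day, against 16.2, 18.3 and 31.3 CPM after saline, on vitamin A. Bladders of the normal diet had 141, 68.2 and 135 CPM at 1 day, against 23, 25.3 and 24.3 CPM after saline. It was 7.88-fold higher on vitamin A (log2 2.98, SE 0.35, adjusted p = 1.18e-05) and 4.76-fold higher on the normal diet (log2 2.25, SE 0.35, adjusted p = 0.000298), with no overlap on either. Col13a1, found at cell adhesions and the neuromuscular junction, had 0.534, 4.53 and 1.94 CPM at 1 day, against 0.349, 0.428 and 0.0417 CPM after saline, on vitamin A (log2 3.03, adjusted p = 0.016), and did not pass on the normal diet (log2 1.98, adjusted p = 0.113). Its call on vitamin A ended without saline replicate 3 or 1-day replicate 2 (adjusted p between 0.0693 and 0.115). Col23a1 had 0.582, 0.977 and 0.398 CPM at 1 day, against 3.63, 4.05 and 4 CPM after saline, on vitamin A (log2 -2.60, SE 0.45, adjusted p = 0.000402). Normal-diet bladders had 0.573, 0.767 and 0.327 CPM at 1 day, against 7.13, 5.16 and 6.74 CPM after saline (log2 -3.50, SE 0.45, adjusted p = 6.62e-05). Col23a1 fell on both, but it shares its strand and part of its span with Phykpl, which held 418% as many counts, so reads of the 2 genes may have been mixed. Col25a1 did not pass on either diet.

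Some type VI and short-chain collagens fell. Of the 6 type VI genes, Col6a3 fell on vitamin A (log2 -1.02, adjusted p = 0.00296), and Col6a2 and Col6a3 fell on the normal diet (log2 -1.10, adjusted p = 0.0287 for Col6a2; log2 -0.96, adjusted p = 0.00803 for Col6a3). Col6a2 had 96.2, 143 and 108 CPM at 1 day, against 271, 242 and 228 CPM after saline, on the normal diet, without overlap. Its call ended without saline replicate 1, 2 or 3 or 1-day replicate 1 or 3 (adjusted p between 0.0588 and 0.104), and without the 2 libraries that stand apart (adjusted p = 0.0555). Col8a2, a chain of the short-chain collagen of vessel walls and the eye, fell on vitamin A, at 13.8, 1.9 and 6.82 CPM at 1 day against 27.1, 30.6 and 23 CPM after saline (log2 -1.89, adjusted p = 0.00377), and missed the threshold on the normal diet (log2 -1.25, adjusted p = 0.0568). Its partner Col8a1 gave log2 0.08 (95% interval -0.42 to 0.57) on vitamin A, and on the normal diet the 95% interval of its log2 change ran from -0.50 to 0.50.

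**Figure D2:**
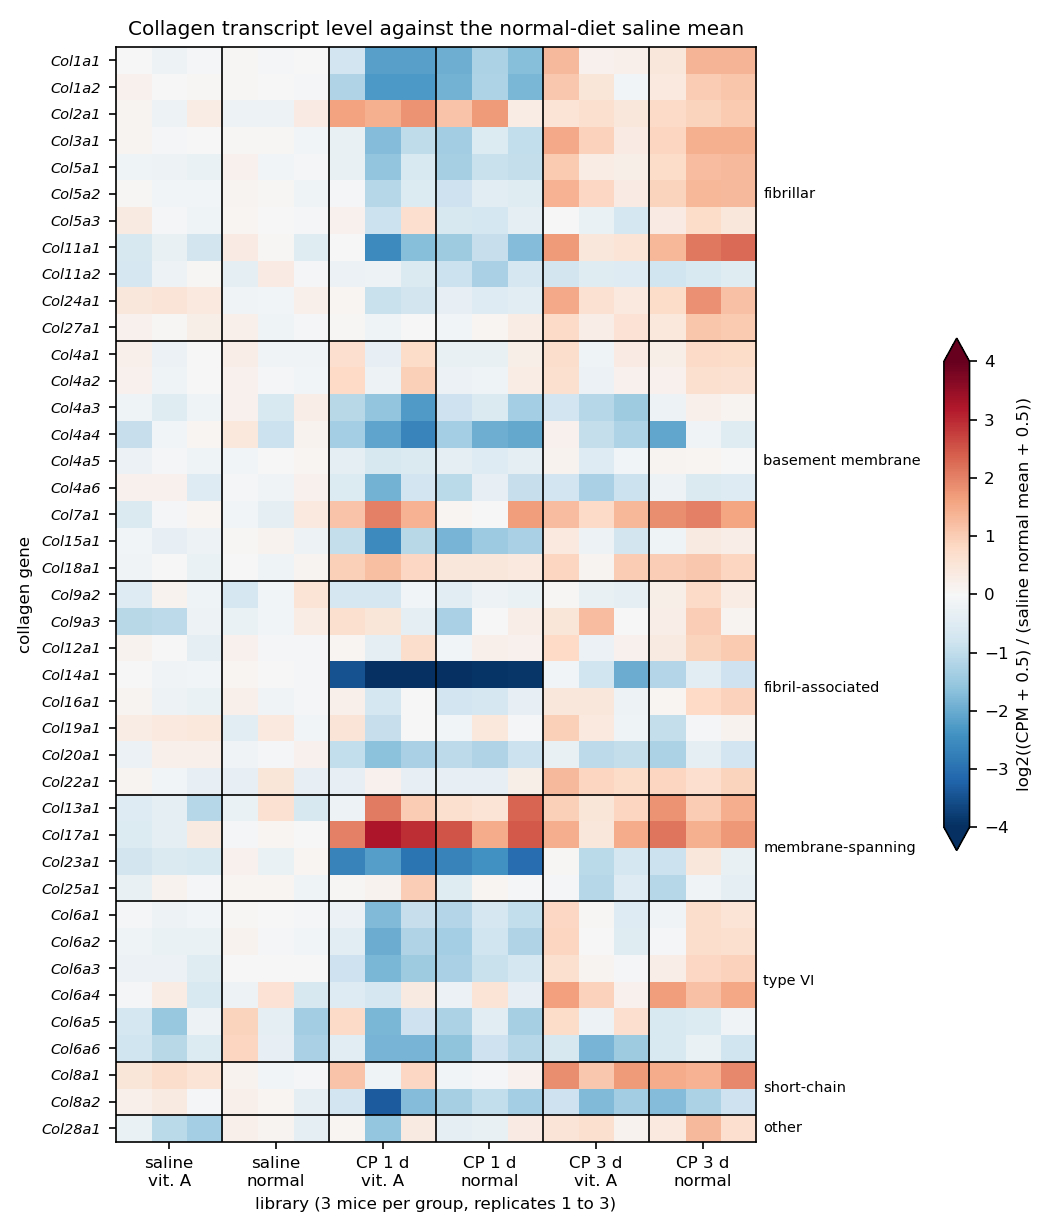
Level of the 41 tested collagen genes (rows, grouped by class) in 18 libraries (columns), as log2 of CPM plus 0.5 over the mean of the normal-diet saline group plus 0.5; colours saturate at -4 and 4. Col14a1 and Col23a1 are the darkest blue rows at 1 day, Col17a1 the darkest red, and most fibrillar rows turn from blue at 1 day to red at 3 days.

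Many genes that trim and space collagen outside the cell fell at 1 day, and fewer of the genes that fold it inside the cell passed. Lower genes were 9.05% of all genes on vitamin A and 4.49% on the normal diet, and higher genes were 10.2% and 7.26%, in this and the next lists. Of 20 tested genes for propeptide removal and fibril assembly, 11 fell and 2 rose on vitamin A (median log2 -1.21) and 10 fell on the normal diet (median log2 -1.02). Among them were the procollagen N-proteinase Adamts2 on both diets (log2 -1.51, adjusted p = 0.000465 on vitamin A; log2 -1.84, adjusted p = 0.000185 on the normal diet) and the small proteoglycans Lum and Ogn on both diets (log2 -2.27, adjusted p = 6.5e-05 and log2 -2.74, adjusted p = 7.75e-06 on vitamin A; log2 -2.09, adjusted p = 0.000276 and log2 -1.85, adjusted p = 0.000472 on the normal diet). Dcn, the proteoglycan decorin, fell as well (log2 -2.14, adjusted p = 1.85e-05 on vitamin A; log2 -1.42, adjusted p = 0.00136 on the normal diet). The 2 that rose on vitamin A were the matricellular genes Tnc and Postn. Of 22 genes for folding and modification in the endoplasmic reticulum, 4 fell and 2 rose on vitamin A (median log2 0.14), and 3 fell and 1 rose on the normal diet (median log2 -0.18). The isomerase Fkbp14 and the transcription factor Creb3l1 fell on both diets, and P4hb, the shared subunit of prolyl 4-hydroxylase, rose on both (log2 0.73, adjusted p = 0.000635 on vitamin A; log2 0.54, adjusted p = 0.0119 on the normal diet). The difference between these lists was not tested.

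Some partners of Col17a1 at the hemidesmosome rose, and the partners of type IV in the basement membrane that passed included both higher and lower genes on vitamin A and lower ones on the normal diet. Of the 5 hemidesmosome partners of Col17a1, 3 rose on vitamin A (Itga6, log2 1.47, adjusted p = 6.38e-05; Itgb4, log2 1.79, adjusted p = 0.000173; Cd151, log2 0.72, adjusted p = 0.000773) and 2 on the normal diet (Cd151, log2 0.65, adjusted p = 0.00308; Itgb4, log2 1.07, adjusted p = 0.017). Among 17 basement membrane partners, 3 rose and 2 fell on vitamin A and 3 fell on the normal diet. Lama3, a laminin chain of epithelia, was among those that rose on vitamin A (log2 1.22, adjusted p = 0.00514). Lama2, the laminin chain of muscle and mesenchyme, fell on both diets (log2 -2.74, adjusted p = 3.72e-05 on vitamin A; log2 -2.19, adjusted p = 0.00047 on the normal diet). Of 9 tested collagen receptors, 1 rose and 3 fell on vitamin A and 3 fell on the normal diet, with the fibroblast integrin Itga11 lower on both (log2 -2.98, adjusted p = 8.5e-05 on vitamin A; log2 -2.09, adjusted p = 0.00247 on the normal diet). Of 16 TGF-beta signalling genes, 5 rose and 4 fell on vitamin A, and 2 rose and 3 fell on the normal diet.

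Cell-type markers moved beside these genes. Of 13 fibroblast markers, 8 fell and 1 rose on vitamin A and 9 fell and 1 rose on the normal diet, and their summed level was 1511 to 1946 CPM at 1 day against 3490.0 to 4738 CPM after saline on vitamin A, and 1602 to 2050.0 CPM against 4487 to 4622 CPM on the normal diet. Pdgfra, which marks fibroblasts broadly, gave log2 -0.68 on vitamin A (adjusted p = 0.0459) and -0.34 on the normal diet (adjusted p = 0.379). Of 6 basal urothelium markers, 5 rose on vitamin A and 4 on the normal diet, and they summed to 4649 to 6372 CPM at 1 day against 1364 to 1561 CPM after saline on vitamin A, and 4343 to 5116 CPM against 1923 to 2119 CPM on the normal diet. The 5 umbrella cell markers summed to 2169 to 3608 CPM against 6332 to 6987 CPM, and 4000.0 to 5384 CPM against 6722 to 7218 CPM, in the same order of diets. No marker of the fibroblast, basal urothelium and umbrella cell lists was at 0 in every library of a group. Sums of other lists were lower too. The 5 pericyte markers summed to 223.9 to 405 CPM against 571.6 to 725.5 CPM on vitamin A, and 282.2 to 378.1 CPM against 721.3 to 797.7 CPM on the normal diet. Most single pericyte markers did not go with their sum. On vitamin A 4 of the 5 had a log2 change above 0 (median 0.40), with 1 called higher and 1 lower. On the normal diet 3 of the 5 did (median 0.14), with 0 called higher and 1 lower. The 9 smooth muscle markers summed to 12630 to 21320 CPM against 25880 to 32750 CPM on the normal diet, and overlapped on vitamin A. The endothelial sum was not lower on either diet. Itga6 and Itgb4 belong to the basal list and to the hemidesmosome list, and Dpt to the fibroblast list and to the fibril assembly list. The part of these markers in the collagen changes was not tested.

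Between 1 and 3 days after cyclophosphamide most fibrillar collagens rose, 7 of 11 on vitamin A and 8 of 11 on the normal diet. On vitamin A, 13 of 41 collagens were higher at 3 days and 2 lower, where 2.55% of all genes were higher and 1.69% lower (4.24% in either direction). On the normal diet, 16 were higher and 0 lower, where 1.22% of all genes were higher and 0.217% lower (1.44% in either direction). Past an unadjusted p of 0.05 lay 22 and 25 collagens, and DESeq2 called 17 higher and 2 lower on vitamin A and 18 higher and 0 lower on the normal diet. The 13 that rose on vitamin A were all among the 16 of the normal diet. Without the 2 libraries that stand apart, 9 were higher and 0 lower on vitamin A and 17 higher and 0 lower on the normal diet. Leaving out replicate 2 of vitamin A at 1 day alone gave 8 on vitamin A. A fit to the 6 vitamin A libraries compared, in place of all 18, called 0 there, with 21 under an unadjusted p of 0.05, and the same kind of fit called 18 higher on the normal diet. These comparisons share the 1-day libraries with those of 1 day against saline. Without 1-day replicate 1, 10 collagens were called on the normal diet. The median log2 change over the 41 collagens was 0.67 on vitamin A and 1.18 on the normal diet.

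The fibrillar collagens that rose on vitamin A rose on the normal diet as well, Col27a1 being the additional one there. Those that did not pass on either diet were Col2a1, Col5a3 and Col11a2, with log2 -1.87, -0.39 and -0.24 on vitamin A and -0.50, 1.06 and 0.27 on the normal diet. Col1a1 had 3151, 1448 and 1472 CPM at 3 days, against 748, 283 and 285 CPM at 1 day, on vitamin A. Its normal-diet levels were 1762, 3272 and 3256 CPM at 3 days, against 332, 535 and 396 CPM at 1 day. The groups did not overlap, and Col1a1 was 4.66-fold higher on vitamin A (log2 2.22, SE 0.35, adjusted p = 0.00204) and 6.31-fold higher on the normal diet (log2 2.66, SE 0.36, adjusted p = 0.000627). Col3a1 had 4849, 3245 and 2128 CPM at 3 days on vitamin A (log2 1.92, SE 0.31, adjusted p = 0.0024) and 3117, 4606 and 4584 CPM at 3 days on the normal diet (log2 2.15, SE 0.32, adjusted p = 0.00119), above every library at 1 day. Col11a1 (chromosome 3, 113823933 to 114014405, plus strand), a minor fibrillar chain that joins type V in fibril cores, had 28.1, 11.5 and 12.3 CPM at 3 days, against 8.39, 0.977 and 2.19 CPM at 1 day, on vitamin A. Normal-diet levels of Col11a1 were 21.5, 37.2 and 41.8 CPM at 3 days, against 2.77, 4.08 and 2.13 CPM at 1 day. It was 4.53-fold higher on vitamin A (log2 2.18, SE 0.52, adjusted p = 0.0239) and 10.7-fold higher on the normal diet (log2 3.43, SE 0.54, adjusted p = 0.00245), where its log2 change exceeded that of every other tested collagen. Col1a2 rose to 3359, 2252 and 1492 CPM at 3 days on vitamin A (log2 2.44, adjusted p = 0.000289) and 2098, 3197 and 3409 CPM on the normal diet (log2 2.43, adjusted p = 0.000358).

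The main type V chains rose as well. Col5a1 had 404, 241 and 229 CPM at 3 days, against 158, 65.5 and 128 CPM at 1 day, on vitamin A (log2 1.33, adjusted p = 0.00515), and 327, 464 and 479.8 CPM at 3 days on the normal diet (log2 2.11, adjusted p = 0.000259). Col5a2, the other main chain, had 417, 281 and 201 CPM at 3 days, against 155, 72.3 and 109 CPM at 1 day, on vitamin A (log2 1.44, adjusted p = 0.00252). Normal-diet bladders had 296, 397 and 389 CPM at 3 days, against 89.4, 115 and 114 CPM at 1 day (log2 1.71, adjusted p = 0.000794). For both genes every 3-day library lay above every 1-day library. Col24a1 had 8.18, 4.11 and 3.48 CPM at 3 days on vitamin A (log2 1.61, adjusted p = 0.0225) and 4.56, 10.2 and 6.31 CPM, against 1.91, 1.61 and 1.76 CPM at 1 day, on the normal diet (log2 1.93, adjusted p = 0.0126). The vitamin A call of Col11a1 ended without 1-day replicate 2 or 3 or 3-day replicate 1 (adjusted p between 0.072 and 0.111). Of the other fibrillar calls, that of Col24a1 ended without 1-day replicate 2 or 3 or 3-day replicate 1 (adjusted p between 0.0952 and 0.1) on vitamin A and without 1-day replicate 1 or 3 or 3-day replicate 2 (adjusted p between 0.069 and 0.0986) on the normal diet, and that of Col27a1 ended without 1-day replicate 1, 2 or 3 or 3-day replicate 2 or 3 (adjusted p between 0.0529 and 0.223) on the normal diet.

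Col14a1 was higher again at 3 days. It had 254, 159 and 68.8 CPM at 3 days, against 24.3, 7.05 and 11.9 CPM at 1 day, on vitamin A (log2 3.50, SE 0.41, adjusted p = 0.000185). Its normal-diet levels were 121, 200.1 and 155 CPM at 3 days, against 10.8, 17.6 and 18.3 CPM at 1 day (log2 3.29, SE 0.40, adjusted p = 0.000315). Every library at 3 days lay above every library at 1 day, although 3-day libraries on vitamin A differed widely among themselves. Col23a1 had 6.61, 2.71 and 3.7 CPM at 3 days on vitamin A (log2 2.72, adjusted p = 0.0024) and 3.29, 8.96 and 5.07 CPM on the normal diet (log2 3.31, adjusted p = 0.000635), with the doubt over Phykpl reads named above. Col15a1 had 124, 81.8 and 56.1 CPM at 3 days on vitamin A (log2 1.33, adjusted p = 0.0202) and 82.3, 121 and 112 CPM on the normal diet (log2 1.65, adjusted p = 0.00823). The Col15a1 calls ended without 1-day replicate 2 or 3-day replicate 1 or 2 (adjusted p between 0.0527 and 0.084) on vitamin A and without 1-day replicate 1 (adjusted p = 0.0786) on the normal diet. Col16a1, another fibril-associated collagen, rose on the normal diet (log2 1.18, adjusted p = 0.0161) and did not pass on vitamin A (log2 0.41, adjusted p = 0.366). The Col16a1 call ended without 1-day replicate 1 or 2 or 3-day replicate 2 or 3 (adjusted p between 0.0594 and 0.117), and the difference between diets did not pass (log2 -0.77, adjusted p = 0.516).

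Of the 6 type VI genes, Col6a2 and Col6a3 rose on both diets and Col6a1 on the normal diet, and Col6a4, Col6a5 and Col6a6 did not pass on either. Col6a3 had 412, 285 and 259.7 CPM at 3 days, against 149, 74.7 and 99.8 CPM at 1 day, on vitamin A (log2 1.58, adjusted p = 0.000786). Normal-diet bladders had 321, 472 and 499.9 CPM at 3 days, against 107, 142 and 162 CPM at 1 day (log2 1.60, adjusted p = 0.000794). Of the short-chain genes Col8a1 rose, at 89.3, 52.1 and 80.9 CPM at 3 days against 54.1, 21.7 and 43.1 CPM at 1 day on vitamin A (log2 0.92, adjusted p = 0.0337) and 68.8, 63.8 and 94 CPM against 22.3, 23 and 27.5 CPM on the normal diet (log2 1.58, adjusted p = 0.00166). The vitamin A groups overlapped for Col8a1 and the normal-diet groups did not. On vitamin A the Col8a1 call ended without 1-day replicate 2 or 3 or 3-day replicate 1 or 3 (adjusted p between 0.0587 and 0.103). Col6a2 had 451, 251 and 175 CPM at 3 days, against 179, 62.2 and 108 CPM at 1 day, on vitamin A, with overlap. The Col6a2 calls ended without 1-day replicate 2 or 3 or 3-day replicate 1 or 2 (adjusted p between 0.0556 and 0.103) on vitamin A and without 1-day replicate 1 or 3 or 3-day replicate 2 or 3 (adjusted p between 0.0803 and 0.139) on the normal diet, and that of Col6a1 without 1-day replicate 1, 2 or 3 or 3-day replicate 2 or 3 (adjusted p between 0.0711 and 0.245). Without the 2 libraries that stand apart, the normal-diet calls of Col6a1 (adjusted p = 0.094) and Col6a2 (adjusted p = 0.0552) ended too. Of 9 basement membrane collagens only Col15a1 passed on each diet, and Col4a1 gave log2 -0.09 (95% interval -0.62 to 0.43) on vitamin A and 0.63 (0.10 to 1.16) on the normal diet.

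Col17a1 moved the other way at 3 days. It had 67.7, 33.3 and 68.3 CPM at 3 days, against 99.6, 232 and 191 CPM at 1 day, on vitamin A, where it fell (log2 -1.63, SE 0.34, adjusted p = 0.0102). Normal-diet levels of Col17a1 were 108, 65.4 and 81 CPM at 3 days, against 141, 68.2 and 135 CPM at 1 day, with overlapping groups (log2 -0.49, SE 0.33, adjusted p = 0.645). The fall on vitamin A ended without 1-day replicate 2 or 3-day replicate 2 (adjusted p between 0.055 and 0.0601). The difference between diets did not pass the threshold (log2 -1.14, adjusted p = 0.482). Col25a1 was the other collagen to fall on vitamin A, at 42.6, 20.5 and 31.7 CPM at 3 days against 47, 49.8 and 90.7 CPM at 1 day (log2 -0.98, adjusted p = 0.0481), and its call ended without 1-day replicate 2 or 3 or 3-day replicate 2 or 3 (adjusted p between 0.0601 and 0.261).

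**Figure D3:**
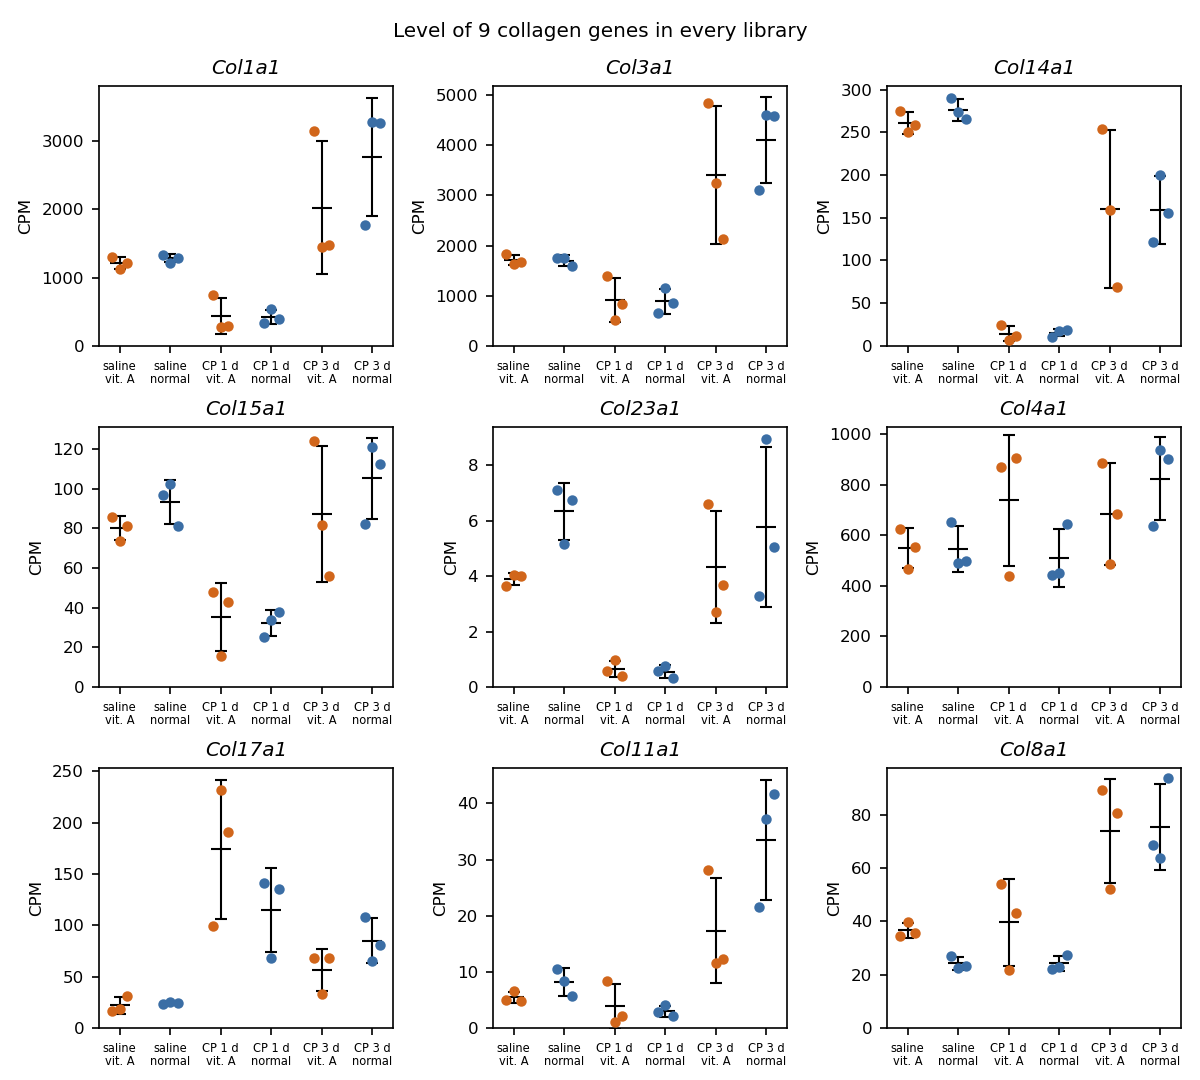
CPM (y axis) of 9 collagen genes in each group (x axis), with points for single libraries and bars for mean and SD of 3 mice. Col14a1 and Col23a1 drop close to 0 at 1 day, Col1a1, Col3a1 and Col11a1 peak at 3 days, Col17a1 peaks at 1 day, and Col4a1 overlaps between saline and 1 day.

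Part of the genes for making fibrils also rose between 1 and 3 days, a change that 2.55% of all genes passed on vitamin A and 1.22% on the normal diet. Of the 20 fibril assembly genes, 10 were higher at 3 days than at 1 day on vitamin A (median log2 1.42) and 6 on the normal diet (median log2 0.87), with 0 lower on either. Adamts2 rose on both (log2 1.59, adjusted p = 0.00263 on vitamin A; log2 2.20, adjusted p = 0.000312 on the normal diet), as did Lum (log2 2.32, adjusted p = 0.000726; log2 1.93, adjusted p = 0.00329). Of the 22 folding genes, 5 rose on vitamin A and 6 on the normal diet. Sparc, which binds collagen and aids its assembly, rose on both (log2 0.96, adjusted p = 0.00821 on vitamin A; log2 1.22, adjusted p = 0.00245 on the normal diet), as did Creb3l1 (log2 0.99, adjusted p = 0.0243; log2 1.65, adjusted p = 0.001). Mrc2, the receptor that takes up collagen for degradation, and Itga11 were the 2 of 9 receptors that rose on each diet. The 13 fibroblast markers held 6 that rose on vitamin A and 4 on the normal diet, and summed to 1556 to 2746 CPM at 3 days on vitamin A and 1996 to 2527 CPM on the normal diet, against 1511 to 1946 and 1602 to 2050.0 CPM at 1 day. At 3 days these marker sums stayed below those of every saline library, while the summed fibrillar FPKM did not, and what part the cells had in it was not tested.

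At 3 days, part of the family stood above its saline level. On vitamin A, 5 collagens were higher and 2 lower than after saline, where 4.32% of all genes were higher and 1.67% lower (5.98% in either direction). On the normal diet, 10 were higher and 2 lower, where 6.74% were higher and 3.3% lower (10% in either direction). On vitamin A, DESeq2 called 10 higher and 3 lower, and a fit to the compared groups alone called 4 in all there and 23 on the normal diet. Without the 2 libraries that stand apart 3 were higher and 0 lower on vitamin A, and 12 higher and 1 lower on the normal diet. Leaving out any 1 of the 6 vitamin A libraries compared left 2 to 4 called, with 2 without saline replicate 2. The 5 genes higher on vitamin A (Col5a2, Col7a1, Col8a1, Col17a1 and Col18a1) were among the 10 of the normal diet, which also held Col3a1, Col5a1, Col11a1, Col24a1 and Col27a1. The lower genes were Col8a2 and Col20a1 on each diet. Comparisons at 3 days share their 3-day libraries with those against 1 day and their saline libraries with those at 1 day.

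Col8a1 had 89.3, 52.1 and 80.9 CPM at 3 days, against 34.4, 39.6 and 35.7 CPM after saline, on vitamin A (log2 1.00, SE 0.24, adjusted p = 0.0146). Normal-diet levels were 68.8, 63.8 and 94 CPM at 3 days, against 27, 22.4 and 23.4 CPM after saline (log2 1.58, SE 0.24, adjusted p = 0.000245), and neither pair of groups overlapped. Its partner Col8a2 was lower, at 13.1, 6.66 and 8.81 CPM against 27.1, 30.6 and 23 CPM on vitamin A (log2 -1.53, adjusted p = 0.0337) and 6.76, 9.45 and 13 CPM against 27.4, 25.1 and 18.4 CPM on the normal diet (log2 -1.34, adjusted p = 0.0468). The 2 chains of type VIII therefore stood on opposite sides of saline. The Col8a1 call on vitamin A ended without saline replicate 1 or 3 or 3-day replicate 3 (adjusted p between 0.0528 and 0.0691). Those of Col8a2 ended without saline replicate 1 or 2 or 3-day replicate 2 or 3 (adjusted p between 0.0864 and 0.123) on vitamin A and without saline replicate 1, 2 or 3 or 3-day replicate 1, 2 or 3 (adjusted p between 0.0539 and 0.208) on the normal diet, the last also without the 2 libraries that stand apart (adjusted p = 0.0644). Col11a1 passed on the normal diet (log2 1.97, SE 0.50, adjusted p = 0.0172) and not on vitamin A (log2 1.63, SE 0.50, adjusted p = 0.0649), although 3-day libraries lay above saline libraries on both. After saline Col11a1 had 5.05, 6.61 and 4.71 CPM on vitamin A and 10.5, 8.41 and 5.67 CPM on the normal diet. Its call on the normal diet ended without saline replicate 2 or 3 or 3-day replicate 3 (adjusted p between 0.0618 and 0.0928). Col5a2, which had 164, 147 and 146 CPM after saline on vitamin A and 169, 164 and 142 CPM on the normal diet, rose on both (log2 0.96, adjusted p = 0.0178 on vitamin A; log2 1.13, adjusted p = 0.00427 on the normal diet). The vitamin A call ended without saline replicate 2 or 3 or 3-day replicate 1 (adjusted p between 0.0714 and 0.0838). Col3a1 gave log2 0.97, adjusted p = 0.0705 on vitamin A and rose on the normal diet (log2 1.21, adjusted p = 0.0168), where its call ended without saline replicate 1, 2 or 3 or 3-day replicate 2 or 3 (adjusted p between 0.0516 and 0.0758). Of the others called on the normal diet, Col24a1 had 2.25, 2.34 and 3.02 CPM after saline (log2 1.40, adjusted p = 0.0204), with a call that ended without saline replicate 1 or 2 or 3-day replicate 2 (adjusted p between 0.0827 and 0.118). Col27a1 had 28.7, 46 and 44.7 CPM at 3 days, against 24.5, 18.7 and 20.4 CPM after saline (log2 0.85, adjusted p = 0.00361), and Col5a1 rose as well (log2 1.05, adjusted p = 0.00958).

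Of the epithelial and basement membrane members, Col17a1 and 2 of the 9 basement membrane genes, Col7a1 and Col18a1, were higher at 3 days than after saline on both diets. Col17a1 was 2.54-fold higher on vitamin A (log2 1.35, adjusted p = 0.0211) and 3.38-fold higher on the normal diet (log2 1.76, adjusted p = 0.00237), and its vitamin A call ended without saline replicate 1 or 2 or 3-day replicate 1 or 3 (adjusted p between 0.0596 and 0.107). Col7a1 had 16.9, 12 and 18 CPM at 3 days on vitamin A (log2 1.36, adjusted p = 0.0396) and 25.9, 28.8 and 21.4 CPM on the normal diet (log2 1.83, adjusted p = 0.0042), all above the saline libraries, and its vitamin A call ended without saline replicate 1, 2 or 3 or 3-day replicate 1, 2 or 3 (adjusted p between 0.051 and 0.161). Col18a1 had 399.6, 239.9 and 450.3 CPM at 3 days on vitamin A (log2 0.83, adjusted p = 0.00472) and 438, 470.2 and 397 CPM on the normal diet (log2 0.92, adjusted p = 0.0015), again all above saline. On vitamin A the Col18a1 call ended in a fit to the compared groups alone (adjusted p = 0.109). Col14a1 gave log2 -0.72 (95% interval -1.49 to 0.05) on vitamin A and -0.86 (-1.63 to -0.09) on the normal diet, and Col1a1 gave 0.71 (-0.00 to 1.42) and 1.05 (0.33 to 1.76), none past the threshold. Col20a1 stayed lower, at 23, 13.4 and 14.5 CPM on vitamin A and 11.6, 22.4 and 16.7 CPM on the normal diet (log2 -0.83, adjusted p = 0.0355 on vitamin A; log2 -0.82, adjusted p = 0.0285 on the normal diet), with calls that ended without saline replicate 2 or 3 or 3-day replicate 2 or 3 (adjusted p between 0.0961 and 0.142) on vitamin A and without saline replicate 1, 2 or 3 or 3-day replicate 1 or 3 (adjusted p between 0.05 and 0.163) on the normal diet.

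Of the genes that serve collagen, a minority of each list stood above saline at 3 days. Of all genes, 4.32% were higher on vitamin A and 6.74% on the normal diet. On the normal diet 22.7% of folding genes, 17.6% of basement membrane partners and 4 of 16 TGF-beta signalling genes were higher. Of fibril assembly genes 1 of 20 was higher there, and of tested receptors 0 of 9. Lower on the normal diet were 2 fibril assembly genes, 1 receptor and 2 TGF-beta signalling genes, where 3.3% of all genes were lower. Fkbp10, an isomerase needed for type I collagen folding, rose on both diets (log2 0.83, adjusted p = 0.00642 on vitamin A; log2 0.82, adjusted p = 0.00536 on the normal diet) and was the only folding gene of 22 past the threshold on vitamin A, against 5 on the normal diet. Bmp1, the procollagen C-proteinase, rose on the normal diet (log2 0.74, adjusted p = 0.00399) and gave log2 0.48, adjusted p = 0.0757 on vitamin A. Ltbp2, a matrix protein of elastic fibres listed under TGF-beta signalling, rose on both (log2 2.05, adjusted p = 0.00318 on vitamin A; log2 2.34, adjusted p = 0.000771 on the normal diet), and Ltbp4 fell on both (log2 -1.13, adjusted p = 0.00379; log2 -1.07, adjusted p = 0.00427). Of 17 basement membrane partners, edgeR called 0 and DESeq2 4 on vitamin A, with 5 under an unadjusted p of 0.05. On the normal diet edgeR called 3 higher (Lamb1, Nid2 and Npnt) and DESeq2 6. Markers of other cells moved too, against 4.32% of all genes higher and 1.67% lower on vitamin A and 6.74% and 3.3% on the normal diet. On vitamin A, 3 of 7 endothelial, 3 of 6 macrophage and 4 of 6 basal urothelium markers rose, and 3 of 5 umbrella cell markers fell. On the normal diet, 6 of 7, 4 of 6 and 4 of 6 of those lists rose, and 3 of 5 umbrella cell and 3 of 9 smooth muscle markers fell. Of 13 fibroblast markers, 3 fell and 1 rose on each diet. All 5 red blood cell markers, the globins and Alas2, fell on both diets. They summed to 0.501 to 0.867 CPM at 3 days against 95.7 to 247 CPM after saline on vitamin A, and to 0.941 to 1.44 CPM at 3 days against 75.7 to 144 CPM after saline on the normal diet. The part of these markers in the collagen levels was not tested.

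**Figure D4:**
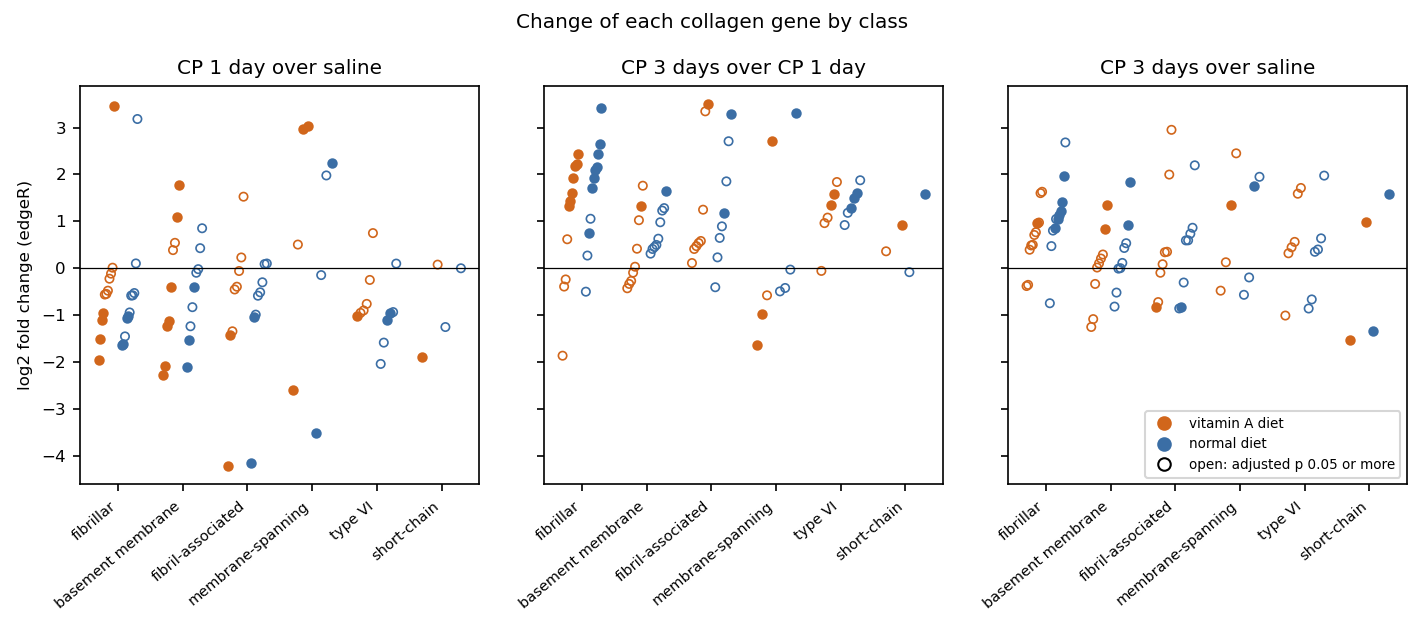
The log2 fold change (y axis) of each collagen by class (x axis) at 1 day over saline, 3 days over 1 day and 3 days over saline, on vitamin A (orange) and the normal diet (blue); filled points have an adjusted p under 0.05. In the fibrillar class most points lie below 0 at 1 day and above 0 at 3 days over 1 day.

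No collagen passed the threshold between the diets. In each of the 3 diet comparisons and the 2 interactions edgeR called 0 of 41 collagens, where it called 0.0104% of all genes after saline, 0.466% at 1 day, 0.00518% at 3 days and 0% in each interaction. Under an unadjusted p of 0.05 lay 1 collagen after saline, 6 at 1 day, 2 at 3 days, 2 where the 1-day effect of cyclophosphamide was compared between diets, and 7 where the change from 1 to 3 days was. DESeq2 called 0, 1, 0, 0 and 0 in the same order. The intervals still admit sizeable effects, since the difference of Col1a1, vitamin A over normal, had 95% intervals of -0.77 to 0.65 after saline, -0.67 to 0.74 at 1 day and -1.11 to 0.31 at 3 days on the log2 scale. Those of Col14a1 were -0.83 to 0.70, -0.95 to 0.67 and -0.70 to 0.84. Those of Col4a1 were -0.50 to 0.55, -0.02 to 1.04 and -0.74 to 0.31, and those of Col17a1 were -0.84 to 0.57, -0.09 to 1.28 and -1.23 to 0.15. Col11a1 had -1.62 to 0.49, -0.77 to 1.45 and -1.93 to 0.11.

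The nearest to a diet difference were Col8a1 and Col18a1. Col8a1 had 34.4, 39.6 and 35.7 CPM on vitamin A and 27, 22.4 and 23.4 CPM on the normal diet after saline, with no overlap (log2 0.61, SE 0.24, adjusted p = 1). At 1 day it had 54.1, 21.7 and 43.1 CPM on vitamin A and 22.3, 23 and 27.5 CPM on the normal diet, which overlapped (log2 0.69, SE 0.24, adjusted p = 0.236). Without replicate 2 of vitamin A at 1 day this difference was log2 0.97 with an adjusted p of 0.0448. Col18a1 had 425, 504 and 390.4 CPM on vitamin A and 300.1, 302 and 288 CPM on the normal diet at 1 day, with no overlap (log2 0.56, SE 0.17, adjusted p = 0.158). It was the 1 collagen that DESeq2 called (log2 0.58, adjusted p = 0.0333), and edgeR called it without the 2 libraries that stand apart (log2 0.63, adjusted p = 0.0422). The authors' deposited tables, which list genes with an unadjusted p under 0.05, held 6 collagens after saline, 7 at 1 day and 5 at 3 days. Past an adjusted p of 0.05 in the authors' deposited tables were Col8a1 after saline (log2 0.61, adjusted p = 0.00275), Col18a1 at 1 day (log2 0.56, adjusted p = 0.00851) and 0 at 3 days, with the sign turned here to vitamin A over normal.

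At 3 days the lowest unadjusted p-values in the diet comparison were those of Col5a3 and Col4a3. Col5a3, the third chain of type V, had 25, 20.5 and 15.1 CPM on vitamin A and 31.5, 41.5 and 34.3 CPM on the normal diet, with no overlap (log2 -0.76, SE 0.27, adjusted p = 0.994). At 1 day the same gene was higher on vitamin A, at 27.7, 13.3 and 39.6 CPM against 15.6, 15.1 and 18.9 CPM, where the groups overlapped (log2 0.68, adjusted p = 0.332), and its interaction of diet with time was log2 -1.45 with an adjusted p of 0.309. Col4a3, the chain with the antisense overlap, was also lower on vitamin A at 3 days (log2 -1.58, adjusted p = 0.994). Summed over the family, FPKM on vitamin A over normal gave log2 ratios of -0.02 after saline, 0.19 at 1 day and -0.26 at 3 days, with exact permutation p = 0.8, 0.6 and 0.7. In both cyclophosphamide groups on vitamin A replicate 1 had the highest sum, and the 3-day sum ran from 1381 to 2723 FPKM.

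**Figure D5:**
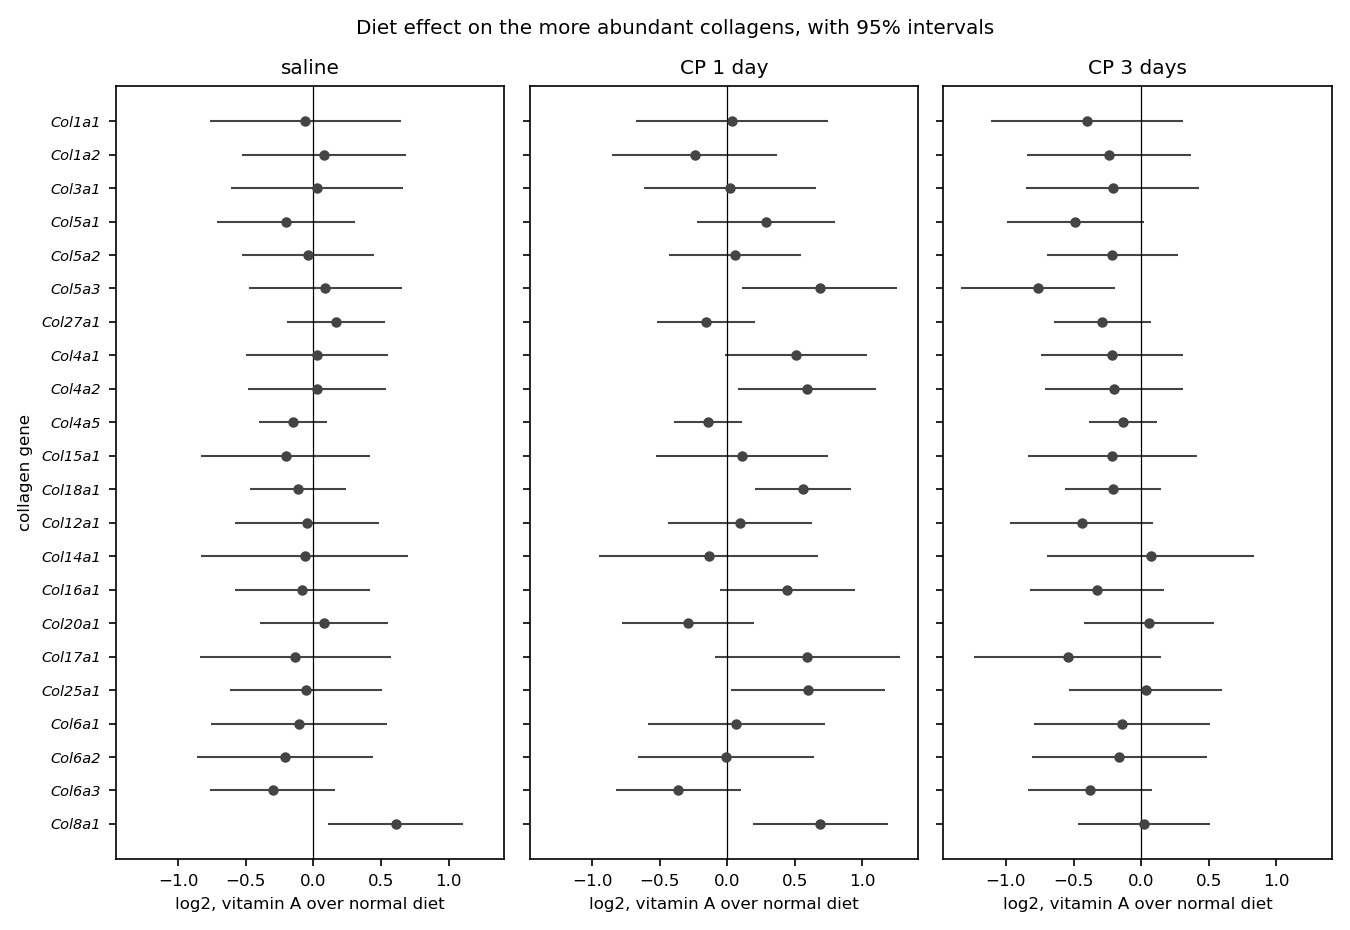
Difference of vitamin A over normal diet (x axis, log2) for the 22 most abundant collagens, whose mean log2 CPM exceeded 4 (y axis), after saline, at 1 day and at 3 days after cyclophosphamide, with 95% intervals from edgeR. Most intervals span 0. Among those that do not are Col8a1 after saline and at 1 day, Col18a1 at 1 day and, below 0, Col5a3 at 3 days.

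The FPKM of chains that build the same protein stood in the following ratios. Col4a1 and Col4a2 lie head to head on chromosome 8, their annotations overlapping by 85 bases on GRCm39, and the FPKM of Col4a2 was 0.753 to 0.965 times that of Col4a1 over the 18 libraries. Col6a2 was 0.382 to 0.488 times Col6a1 in FPKM, and Col1a2 was 1.04 to 1.77 times Col1a1. The ratio of Col3a1 to Col1a1, types III and I, averaged 1.51 ± 0.0456 after saline, 2.35 ± 0.675 at 1 day and 1.86 ± 0.464 at 3 days on vitamin A, and 1.42 ± 0.117, 2.23 ± 0.129 and 1.63 ± 0.222 on the normal diet (SD, n = 3). The ratio was higher at 1 day than after saline in both diets' means.

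Ratios between other related collagens were as follows. Col8a2 over Col8a1, chains that can each form type VIII on their own, averaged 0.837 ± 0.0902 after saline, 0.19 ± 0.0956 at 1 day and 0.145 ± 0.0212 at 3 days in FPKM on vitamin A, and 1.11 ± 0.196, 0.473 ± 0.106 and 0.146 ± 0.0302 on the normal diet, a 12.8-fold span over all libraries. Col14a1 over Col12a1 averaged 2.53 ± 0.48, 0.119 ± 0.0784 and 1.19 ± 0.577 on vitamin A and 2.5 ± 0.138, 0.13 ± 0.0213 and 0.834 ± 0.143 on the normal diet at the same times. Col11a1 over Col5a1, partners in fibril cores, averaged 0.0339 ± 0.00581 after saline, 0.0297 ± 0.0224 at 1 day and 0.0597 ± 0.0118 at 3 days on vitamin A. On the normal diet it averaged 0.0435 ± 0.0102, 0.0333 ± 0.00982 and 0.0813 ± 0.0114 at those times. These ratios are descriptions and were not tested.

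The remaining members were scarce. Col2a1, Col4a3, Col9a2, Col22a1, Col6a5 and Col6a6 had at most 0.367 FPKM in any library, and so did the untested Col9a1, Col10a1 and Col26a1. Col9a3 and Col10a1 overlap Tcfl5 and Nt5dc1 on the other strand, and since the strand setting of the counting is not given in the sources used here, their reads cannot be told apart from those of the neighbours. Col28a1, which encodes a collagen of nerve sheaths, had 3.43 ± 1.63 CPM after saline, 5.77 ± 3.44 CPM at 1 day and 9 ± 1.63 CPM at 3 days on vitamin A (SD, n = 3 each), and did not pass in any comparison. Col19a1 also passed in none. Beside the collagens, Schwann cell markers summed to 82.8 to 92.2 CPM after saline, 116.3 to 121 CPM at 1 day and 99.8 to 142 CPM at 3 days on vitamin A. On the normal diet they summed to 84.1 to 97.4, 101 to 122 and 128.1 to 148.5 CPM at the same times. At 3 days over saline, 0 of the 5 passed on vitamin A and 1 rose on the normal diet. Of all genes, 4.32% and 6.74% were higher there. Of 5 cartilage markers only Comp and Sox9 had enough counts to test.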

How the data were processed

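RNA of whole bladders of 18 mice was sequenced, with 3 mice in each of 6 groups. The deposited count table holds whole-number counts per gene, and HISAT2 2.0.5, featureCounts 1.5.0-p3, DESeq2 1.20.0 and GRCm39 are named, with no role or order, in the submitters' processing notes. The strand setting of the counting is not given in the sources used here. FPKM values, as deposited by the authors, scale counts by gene length and by a library factor that was not recomputed here. They were used to set levels of different genes side by side. The family sums, class shares and chain ratios compared between groups also rest on them. The authors' deposited tables of diet comparisons give a normalized signal per library, log2 fold changes of normal over vitamin A and p-values, of which the fold changes and p-values were read.

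Counts of the 46333 named genes were used here, and 14417 features with no name, 0.474% to 0.81% of counts, were left out. The library totals of 19554132 to 34598952 counts set the precision of each value, and error bars cover mice of 1 experiment. edgeR 4.0.16 was run in R 4.3.3 with TMM scaling, filtering by group, 1 mean per group, a robust quasi-likelihood fit to all 18 libraries (12 residual degrees of freedom) and Benjamini-Hochberg adjustment over 19323 genes for each comparison, with a threshold of 0.05. Every adjusted p is from this fit unless another source is named. Summed FPKM was compared by an exact two-sided permutation test. The fit was also run on simulated counts drawn with the spread it had estimated, the same in all groups. Such counts cannot show how the fit does where groups differ in spread. Alternatives were DESeq2 1.42.0, other scalings, no filter, unnamed features kept, a replicate block, a fit to the compared groups alone and leaving out libraries.

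Values in every library are given for Col1a1, Col14a1, Col4a1, Col17a1 and Col11a1 and for up to 10 called members each way per comparison by size of change, and up to 4 genes by smallest adjusted p are drawn from each list; other members are named where a count turns on them, and some genes of the lists are not reported here. The members and lists were chosen with earlier results of these data known.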

Additional observations from a re-analysis of the deposited data

How the results depend on the processing

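Of 1148 repeats of the single-gene calls of the 6 comparisons of treatment and time under alternative settings, 926 kept direction and threshold, 222 kept direction and missed the threshold, and 0 reversed. Counts of collagens called that moved by over 1.5 times were as follows. Without a filter on low counts, 4 were called at 3 days over saline on vitamin A, against 7. A fit to the compared groups alone gave 21 at 1 day over saline on the normal diet, 0 at 3 days over 1 day on vitamin A, and at 3 days over saline 4 on vitamin A and 23 on the normal diet. Without vitamin A replicate 2 at 3 days and replicate 3 at 1 day, an alternative chosen after seeing the data, 9 were called at 3 days over 1 day and 3 at 3 days over saline on vitamin A, and 1 between diets at 1 day. DESeq2 called 13 at 3 days over saline on vitamin A and 1 between diets at 1 day. Leaving out 1 library gave 12 to 25 at 1 day over saline on vitamin A and 10 to 11 on the normal diet. It gave 8 to 17 at 3 days over 1 day on vitamin A and 10 to 16 on the normal diet, 2 to 4 at 3 days over saline on vitamin A and 8 to 12 on the normal diet, and 0 to 1 between diets at 1 day. The lowest of these came without saline replicate 2 or 1-day replicate 2 or 3, without 1-day replicate 2, and without saline replicate 2 on vitamin A, in the order of those comparisons, and without 1-day replicate 1 at 3 days over 1 day on the normal diet. The counts of 25 and 17 came without 1-day replicate 1 on vitamin A. The cause was not tested.

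Without Col1a1, Col1a2 and Col3a1, the log2 ratio of summed FPKM was -0.045 on vitamin A and -0.50 on the normal diet at 1 day over saline, 0.38 and 0.98 at 3 days over 1 day, and 0.49 at 3 days over saline on the normal diet. Leaving out 1 library, the log2 ratio of the full sum ran between -0.99 and -0.55 on vitamin A and between -1.06 and -0.86 on the normal diet at 1 day over saline, between 1.06 and 1.59 and between 1.69 and 1.98 at 3 days over 1 day, and between 0.30 and 0.80 and between 0.74 and 1.01 at 3 days over saline. Between diets it ran from -0.09 to 0.02 after saline, -0.04 to 0.39 at 1 day and -0.56 to -0.05 at 3 days.

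Correlations of same-numbered deviations ran from -0.227 to 0.298, and no comparison had every pair above 0.1. With 3 replicates a group, this check cannot exclude that replicate numbers were paired. With the replicate block 18 and 13 collagens were called at 1 day over saline, 14 and 15 at 3 days over 1 day and 6 and 11 at 3 days over saline, on vitamin A and the normal diet, and 0 between diets.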
